A study of Mus musculus with 3 samples.

Results

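The genes described here encode 9 channels of the transient receptor potential (TRP) family that sensory neurons use to detect temperature, chemicals, acid or osmotic change, or that are expressed more widely in neurons and other cells. They were chosen by name: Trpv1, Trpv2, Trpv4, Trpa1, Trpm2, Trpm3, Trpm7, Trpm8 and Trpc1. All 9 were found among the 41388 genes of the deposited tables. RNA came from mouse dorsal root ganglia, which hold the cell bodies of the body's sensory neurons, of embryos at 14.5 days post coitum on a C57BL/6 background, dissected at spinal levels T11 to S1 and sorted for green fluorescence from a Ret-EGFP reporter. Every embryo carried the reporter. The genotype label gives it as a transgene, Tg(Ret-EGFP)SJ, while the series design gives it as a heterozygous knock-in at the Ret locus, so whether both Ret alleles were intact is not known. The 3 libraries, named A, B and D, form 1 group with no control population and no fluorescence-negative cells. Library A pooled 100 ganglia from 3 male and 2 female embryos, and library B 100 ganglia from 2 males and 4 females, each taken from 2 mothers. For library D, 80 ganglia came from 3 males and 1 female. Each library is therefore a pool, and the spread between libraries is the spread between pools, biological and technical together.

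A TRP channel is built from subunits that each cross the membrane repeatedly and assemble as tetramers around a cation pore. In adult sensory ganglia, TRPV1 is the capsaicin and heat receptor of nociceptors, TRPM8 the menthol and cool receptor, TRPA1 the receptor for mustard oil and other electrophilic irritants, and TRPM3 a heat and neurosteroid receptor. Developing nociceptors acquire these channels over a long period, and single subtypes are separated partly by the transcription factor Runx1. TRPV2, TRPV4, TRPM2, TRPM7 and TRPC1 are found in many tissues besides sensory neurons.

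Levels are given as counts, as CPM (counts relative to the sum over the library) and as TPM (the count divided by gene length, then scaled to the sum over all genes, which allows different genes to be compared). The counting floor was set at 3 counts, close to the one-sided 95% upper limit for a gene with none. The two-sided exact Poisson 95% interval of such a gene reaches 3.69 counts. The libraries held 20181558 (A), 20355302 (B) and 29061086 (D) counts, so 3 counts correspond to 0.149, 0.147 and 0.103 CPM. The sorted cells carried all 10 sensory neuron markers at high levels (summed 40685 to 45414 TPM per library, among them Tubb3, Isl1 and Pou4f1). Other cells were represented too: 7 glial markers summed to 487, 784 and 878 TPM in A, B and D, 8 macrophage markers to 36.9, 30.1 and 24.6 TPM, 7 mesenchyme and pericyte markers to 19.2, 70.6 and 19.3 TPM, 6 erythroid markers to 84.8, 74.8 and 304 TPM and 6 endothelial markers to 3.82 to 4.57 TPM. No gene of these marker lists was at 0 in all libraries. In such bulk samples, fewer cells of a type and less RNA per cell cannot be told apart.

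Start regions of 4 of the genes are shown first, because they cover the range of levels below: Trpv2 and Trpv1, the highest of the 9 by mean TPM, Trpm8, close to the floor, and Trpm7, a gene active in most tissues. Each window runs from 250 bases before to 50 bases after a RefSeq transcription start (build GRCm38.p6), 5′ to 3′ on the gene's strand. RefSeq windows were found for 8 of the 9 genes, 11 windows in all, and Trpa1 had no entry. The single Trpm8 window lies inside the counted gene, which begins at 88277661, so it does not describe that first start. Capitals mark TGTGGT, the core letters bound by RUNX factors, in the Trpv2 and Trpv1 windows, TATAAA, the letters of a TATA box, in the Trpm8 window, and every CG dinucleotide in the Trpm7 window.
Trpv2, chr11:62574236-62574535, plus strand: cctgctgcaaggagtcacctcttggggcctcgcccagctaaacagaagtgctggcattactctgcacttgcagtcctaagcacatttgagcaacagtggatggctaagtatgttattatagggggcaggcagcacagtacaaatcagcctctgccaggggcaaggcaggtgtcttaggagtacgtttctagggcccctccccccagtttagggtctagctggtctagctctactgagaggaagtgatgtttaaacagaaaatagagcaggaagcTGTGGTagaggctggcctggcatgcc
Trpv1, chr11:73233899-73234198, plus strand: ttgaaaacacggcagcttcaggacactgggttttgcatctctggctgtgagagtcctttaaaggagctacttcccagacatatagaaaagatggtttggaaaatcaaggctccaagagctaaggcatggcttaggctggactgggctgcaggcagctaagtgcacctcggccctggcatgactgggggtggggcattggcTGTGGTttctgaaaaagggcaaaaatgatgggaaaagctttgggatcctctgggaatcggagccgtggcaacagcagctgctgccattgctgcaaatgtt
Trpm8, chr1:88306485-88306784, plus strand: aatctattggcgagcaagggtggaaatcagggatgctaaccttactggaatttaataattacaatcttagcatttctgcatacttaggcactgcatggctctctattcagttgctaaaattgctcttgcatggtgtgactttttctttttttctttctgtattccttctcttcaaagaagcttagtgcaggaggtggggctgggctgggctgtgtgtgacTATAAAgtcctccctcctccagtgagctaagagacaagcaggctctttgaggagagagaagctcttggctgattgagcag
Trpm7, chr2:126876212-126876511, minus strand: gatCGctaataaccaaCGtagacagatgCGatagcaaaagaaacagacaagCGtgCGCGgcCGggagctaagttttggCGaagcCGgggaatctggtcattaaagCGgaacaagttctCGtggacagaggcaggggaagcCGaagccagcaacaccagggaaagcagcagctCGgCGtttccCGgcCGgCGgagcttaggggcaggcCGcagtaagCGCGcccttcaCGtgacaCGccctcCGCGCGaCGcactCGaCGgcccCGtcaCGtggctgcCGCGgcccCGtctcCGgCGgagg

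Channel genes with a level of at least 1 TPM numbered 6: Trpv2, Trpv1, Trpm7, Trpm3, Trpc1 and Trpm2. All 6 reached 1 TPM in each of the 3 libraries. Trpv4 and Trpm8 lay below 1 TPM but above 3 counts in every library. Trpa1 was at the counting floor in B and D, with no counts, and just above it in library A, with 4 counts. Of all 21397 protein coding genes, 55.5% reached 1 TPM and 63.3% exceeded 3 counts in every library, and of all 41388 genes 33.6% and 37.1%. With so few genes, the 6 of 9 at 1 TPM was close to the share of coding genes, and the 8 of 9 above 3 counts was larger. The genes had been chosen by name, so no test was made. The median of the 9 means was 2.54 TPM, against 2.08 TPM over all coding genes. The plot of members by library shows how far Trpv2 lay above the others.

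**Figure D1:**
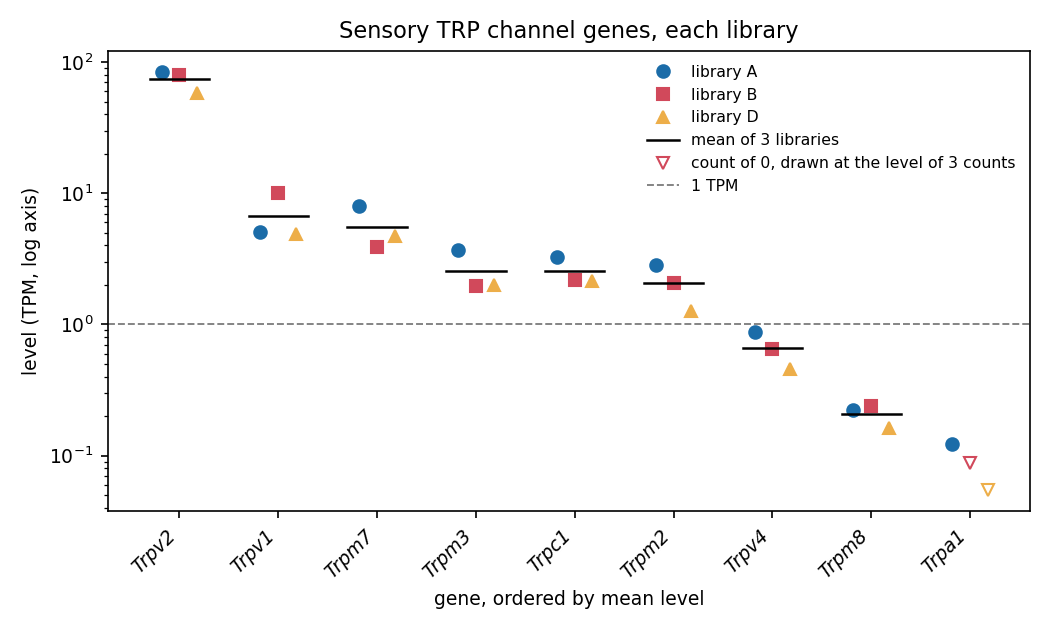
Level of each of the 9 channel genes in libraries A, B and D (points, TPM on a log axis), with the mean of the 3 libraries (black bars, drawn where all counts exceed 0) and 1 TPM (dashed line). Open triangles stand at the level of 3 counts for a count of 0. Trpv2 lies between 58.3 and 84.4 TPM, 5 genes lie between 1.27 and 10.0 TPM, and Trpa1 is at the floor in B and D.

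Trpv2 (ENSMUSG00000018507, chromosome 11, 62574486 to 62600515, GRCm38.p2, plus strand) encodes a channel activated by strong heat in heterologous cells and by membrane stretch in growing axons. Libraries A, B and D held 2870, 2848 and 3384 counts of it. As TPM these were 84.4, 79.7 and 58.3, a mean of 74.1 ± 13.9 (SD, n = 3). D was the lowest of the 3, and its Poisson 95% interval (56.4 to 60.3 TPM) did not overlap those of A (81.3 to 87.5) or B (76.8 to 82.7). Of all coding genes, 90.4% had a lower mean level. Trpv2 held 77.8%, 79.1% and 78.8% of the summed TPM of the 9 genes in A, B and D (78.6% ± 0.69, SD, n = 3). Since Trpv2 is itself most of that sum, the small spread of the share says little about its level.

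Trpv1 (ENSMUSG00000005952, chromosome 11, 73234292 to 73261242, plus strand), the capsaicin receptor gene, was counted 141, 294 and 234 times in A, B and D. These are 5.05, 10.0 and 4.91 TPM, with a mean of 6.66 ± 2.91 (SD, n = 3). Library B stood apart, at 2.04 times the level in D, and its Poisson 95% interval (8.92 to 11.2 TPM) lay above those of A (4.25 to 5.96) and D (4.30 to 5.58). Without B the mean was 4.98 TPM. Of the cell type markers summed above, those of mesenchyme and pericytes also stood highest in B. Among nociceptor genes, so did the sodium channel gene Scn10a (47.7, 62.5 and 25.3 TPM in A, B and D), Calca, Th, Mrgprd and Tlx3. P2rx3 was highest in A, and Runx1, Prdm12, Scn9a and Tac1 in D. The part of these markers in the level of Trpv1 was not tested. Trpv2 exceeded Trpv1 in 3 of 3 libraries, by 11.6-fold (log2 TPM ratio 3.54 ± 0.54, SD, n = 3, exact sign-flip p = 0.25, adjusted p = 0.29). With 3 libraries, 0.25 is the smallest p that this two-sided exact permutation test can give, so none of the ratios here could pass 0.05.

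The widely expressed channel genes came next. Trpm7 (ENSMUSG00000027365, chromosome 2, 126791565 to 126876230, minus strand) encodes a channel fused to a protein kinase that carries magnesium and zinc. Its counts of 691, 353 and 690 in A, B and D gave 8.05, 3.92 and 4.71 TPM (mean 5.56 ± 2.20, SD, n = 3). A was the highest and B the lowest. Trpv1 and Trpm7 could not be ordered: their log2 ratios were -0.67, 1.36 and 0.06 in A, B and D (mean 0.25 ± 1.03, SD, n = 3, exact sign-flip p = 0.75), and without B the mean turned to -0.31. Trpm7 lay above Trpm3 in 3 of 3 libraries with little spread (log2 ratio 1.12 ± 0.12, SD, n = 3, exact p = 0.25).

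Trpm3 (ENSMUSG00000052387, chromosome 19, 22139119 to 22989884, plus strand), a heat and neurosteroid channel gene that spans 850766 bases, had 225, 126 and 210 counts, or 3.68, 1.96 and 2.01 TPM in A, B and D (mean 2.55 ± 0.98, SD, n = 3). It was higher in A than in the other libraries, whose Poisson 95% intervals overlapped. The microRNA gene Mir204 lies in an intron of Trpm3 and had no counts, and the antisense gene Gm27151, which shares 177 exonic bases with Trpm3, had 28, 34 and 53 counts. The labels and headers do not say whether counting used strand, so reads in those bases cannot be assigned to one of the pair. Trpc1 (ENSMUSG00000032839, chromosome 9, 95705082 to 95750375, minus strand), a subunit of receptor-operated channels, had 199, 140 and 224 counts, or 3.27, 2.19 and 2.16 TPM (mean 2.54 ± 0.63, SD, n = 3). Trpm3 and Trpc1 differed by less than their spread (log2 ratio -0.03 ± 0.18, SD, n = 3, exact p = 1).

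Trpm2 (ENSMUSG00000009292, chromosome 10, 77907722 to 77970563, minus strand) encodes a channel opened by ADP-ribose and oxidative stress, studied both in warmth-sensing neurons and in macrophages. It had 265, 204 and 203 counts, which are 2.84, 2.08 and 1.27 TPM in A, B and D (mean 2.06 ± 0.78, SD, n = 3), and the 3 Poisson 95% intervals did not overlap. The summed macrophage markers followed the same order over the libraries (36.9, 30.1 and 24.6 TPM), with 4 of 8 of them at 1 TPM or more. Fcer1g (17.8 TPM on average) and C1qb (8.09 TPM) were the highest, while Csf1r averaged 0.917 and Adgre1 0.870 TPM. C1qb, Csf1r, Adgre1 and Ptprc fell from A to B to D, Fcer1g only slightly (18.3, 17.9 and 17.3 TPM). Aif1, C1qa and Cx3cr1 did not follow that order, while Trpv2, Trpv4 and the nociceptor gene P2rx3 did. The summed sensory neuron markers also fell from A to B to D (45414, 40981 and 40685 TPM). So did the summed endothelial markers (4.57, 4.03 and 3.82 TPM), while the glial, mesenchyme and pericyte, and erythroid sums did not. The part of macrophages in the level of Trpm2 was not tested. Trpc1 lay above Trpm2 in 3 of 3 libraries, but by less than the spread (log2 ratio 0.35 ± 0.36, SD, n = 3, exact p = 0.25), and Trpm2 above Trpv4 by 3.08-fold (log2 ratio 1.62 ± 0.12, SD, n = 3, exact p = 0.25).

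Of the 7 genes with at least 10 counts in every library, all 21 pairs were compared, and 18 had the same order in every library. In the order Trpv2, Trpv1, Trpm7, Trpm3, Trpc1, Trpm2, Trpv4, the neighbours that did not differ beyond their spread were Trpv1 and Trpm7, Trpm3 and Trpc1, and Trpc1 and Trpm2. The order rests on the length correction. As CPM, Trpm7 lay above Trpv1 (log2 Trpv1/Trpm7 -1.37) and Trpm2 above Trpc1 (log2 Trpc1/Trpm2 -0.27). The deposited lengths join all annotated exons. An alternative chosen after seeing the data used the length of the GENCODE M21 transcript that has the longest coding sequence. With it, Trpv2 would stand at 114 TPM, Trpm7 at 8.85, Trpv1 below it at 7.30, Trpc1 at 4.47, Trpm3 at 3.87 and Trpm2 at 3.49 TPM.

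The 3 lowest genes rested on few reads. Trpv4 (ENSMUSG00000014158, chromosome 5, 114622152 to 114658421, minus strand), an osmosensitive and warmth-activated channel gene of epithelia and many other tissues, had 27, 21 and 24 counts in A, B and D. This is 0.874, 0.647 and 0.455 TPM (mean 0.659 ± 0.210, SD, n = 3), and the intervals of all 3 libraries overlapped. As CPM its mean was 1.07, so by CPM it would join the genes at 1 or more.

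Trpm8 (ENSMUSG00000036251, chromosome 1, 88277661 to 88389293, plus strand), the cool and menthol receptor gene, had 8, 9 and 10 counts. They correspond to 0.223, 0.239 and 0.163 TPM (mean 0.208 ± 0.0398, SD, n = 3). The counts were alike in the 3 libraries, and each lower limit of the Poisson 95% interval (3.45, 4.12 and 4.80 counts in A, B and D) exceeded the 3 counts of the floor. In A that limit lay below the 3.69 counts that the two-sided interval of a gene without counts reaches. In all, 388 of its 4732 exonic bases (8.20%) overlap the antisense gene 4930453O03Rik, which had no counts. Of the distinct 50-base stretches of its transcripts, 6.28% also occurred in transcripts of that antisense gene and in those of no other gene.

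Trpa1 (ENSMUSG00000032769, chromosome 1, 14872648 to 14918862, minus strand), the irritant receptor gene, had 4 counts in A (0.124 TPM, Poisson 95% interval 0.0337 to 0.317) and 0 in B and D, where the floor of 3 counts lies at 0.0884 and 0.0544 TPM and the two-sided intervals reach 0.109 and 0.0669 TPM. Its level in A is above that floor and in B and D it is not, and the intervals of all 3 overlap. Taken against the floor of 3 counts and not against those interval limits, Trpv1 was at least 113-fold higher than Trpa1 in B and at least 90.3-fold higher in D. No 50-base stretch of a Trpa1 transcript was found in a transcript of another gene, which was also the case for Trpv1, Trpv4 and Trpm7. Intervals and floors cover counting error only, since the labels describe PCR amplification without molecular identifiers.

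**Figure D2:**
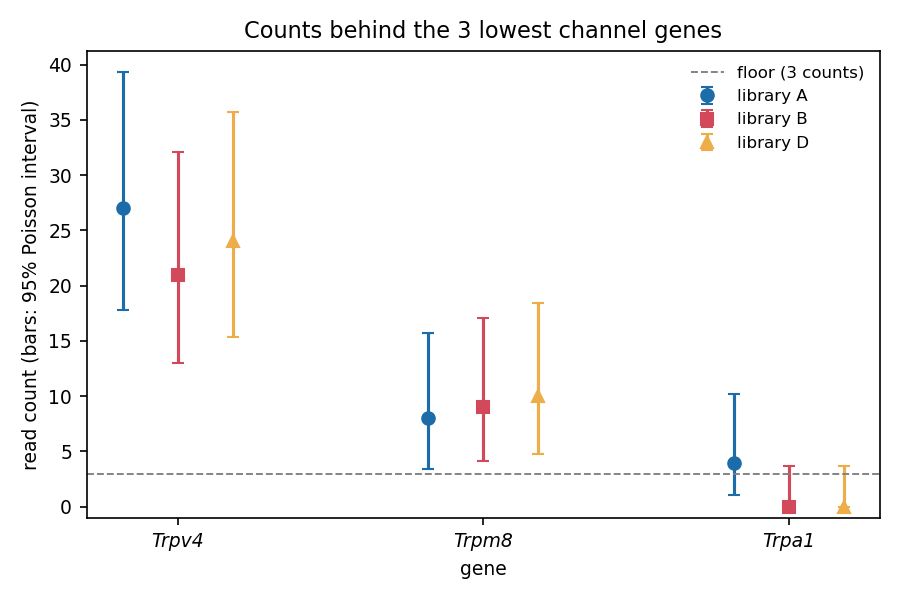
Read counts of Trpv4, Trpm8 and Trpa1 in libraries A, B and D (points) with exact Poisson 95% intervals (bars) and the floor of 3 counts (dashed line). Trpv4 stands at 21 to 27 counts and Trpm8 at 8 to 10, with intervals above the floor, while the Trpa1 intervals all include it.

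Differences between the libraries were set against the variation of all genes of similar level, with edgeR's deviance goodness-of-fit test and Benjamini-Hochberg adjustment over 13530 genes. That test called 24 genes (0.177%). Of the 9 channel genes 7 entered it, none was called (adjusted p = 0.9999 for each in edgeR), and none had an unadjusted p under 0.05, where 6.11% of all genes did. DESeq2 marked 18 genes as dispersion outliers and none of the 9. The lowest unadjusted edgeR p-values were 0.254 for Trpm7 and 0.272 for Trpv1. Trpm8 and Trpa1 had too few counts to be tested. The common coefficient of variation between these libraries was 30.3%, beside TPM ranges of 2.04-fold for Trpv1 and 2.06-fold for Trpm7. On the CPM scale, Trpm7, Trpm3, Trpc1, Trpm2 and Trpv4 were each highest in A, by 0.44 to 0.75 log2 CPM over the mean of the other 2 libraries. Trpv1 showed the reverse, 0.63 below the others in A (log2 difference -0.63) and 0.95 above them in B. Trpv2 moved little on this scale (log2 difference 0.16 in A, 0.12 in B and -0.28 in D).

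**Figure D3:**
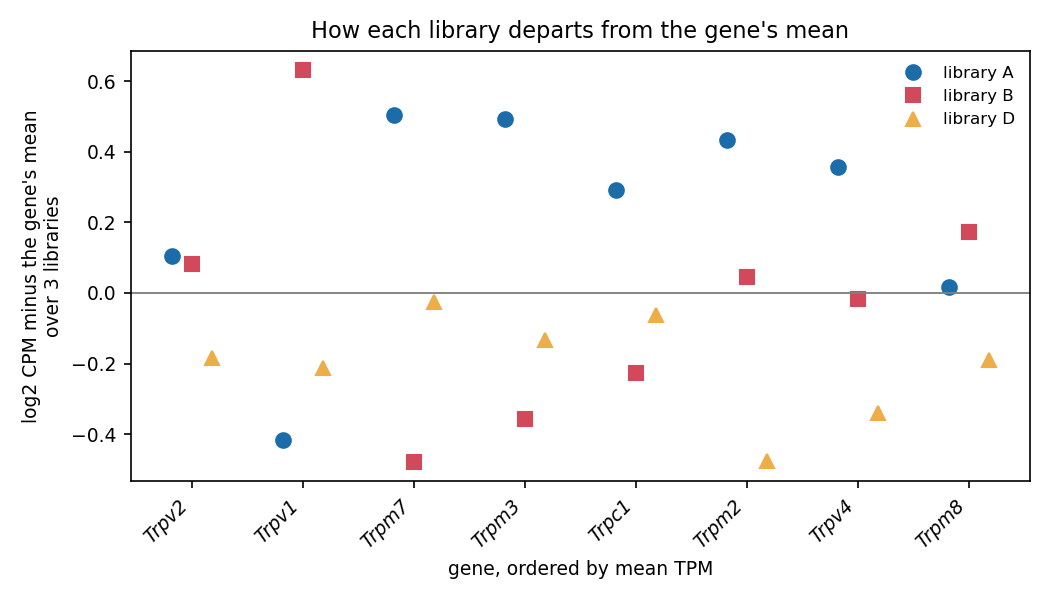
Log2 CPM of each library minus the mean over the 3 libraries of the same gene, for the 8 channel genes with more than 3 counts in every library (points, one per library). Trpv1 is the gene with B highest and A lowest, Trpm7, Trpm3, Trpc1, Trpm2 and Trpv4 have A highest by a wide gap, and Trpv2 and Trpm8 stay within 0.19 of 0.

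The other 19 genes of the TRP family were described beside the 9. Of these, 7 reached 1 TPM, a smaller share than the 55.5% of all coding genes. Among them were the lysosomal channel gene Mcoln1 (17.4, 26.1 and 6.33 TPM in A, B and D), the calcium-activated monovalent channel gene Trpm4 (13.8 ± 1.37 TPM), Trpc4 (12.5 ± 4.65), which encodes a receptor-operated channel, Pkd2l2 (3.02 ± 0.178), Pkd2l1 (2.63 ± 1.62) and Trpc7 (1.08 ± 0.240; all SD, n = 3). Mcoln1 was lowest in D and had the list's only unadjusted edgeR p under 0.05 (0.0278), but did not pass (edgeR adjusted p = 0.73). Trpc2 and Trpv5 had no counts and Trpc6 had 1 or 2 counts, so these 3 were at or under the floor in every library. Trpm1 had 11 counts in A and none in B or D. The 9 sensory channel genes made up 61.6% to 63.7% of the summed TPM of all 28 TRP genes, and Trpv2 alone 49.4% ± 0.77 (SD, n = 3).

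**Figure D4:**
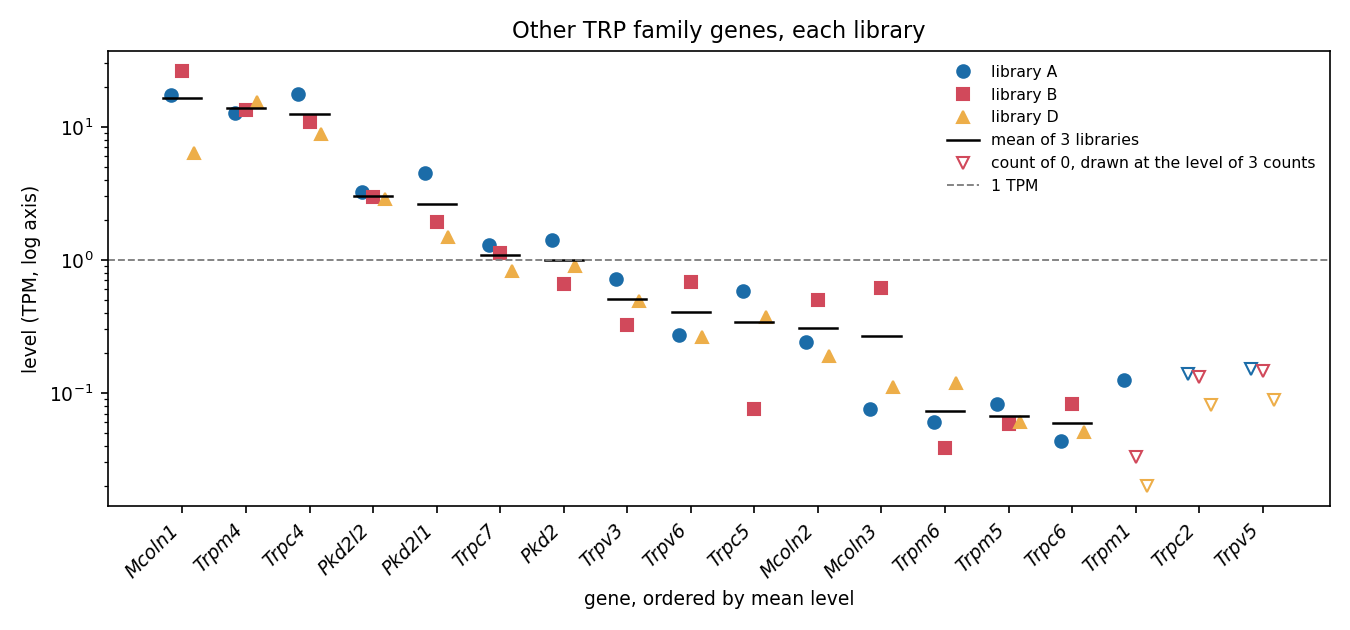
Level of 18 other TRP family genes in libraries A, B and D (points, TPM on a log axis), drawn as in the plot of the 9 channel genes. Mcoln1, Trpm4 and Trpc4 average 12.5 to 16.6 TPM, and Trpc2 and Trpv5 have no counts in any library.

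Genes whose products bind or modulate TRP channels were mostly expressed, 17 of 19 at 1 TPM or more, beside 55.5% of all coding genes. This list was also chosen by name, so no test was made. Gabarap, a trafficking protein gene that binds TRPV1, stood at 919 ± 135 TPM and Pirt, which encodes a membrane protein of sensory neurons that binds TRPV1 and TRPM8, at 411 ± 62.2 TPM. Other genes of the list at 1 TPM or more included Tcaf1 (93.8 ± 25.2), whose product binds TRPM8, Snapin (87.2 ± 26.0) and the kinase gene Prkce (34.2 ± 4.64). Tmem100, whose product links TRPA1 and TRPV1, reached 17.8, 15.8 and 18.7 TPM in A, B and D, in the libraries where Trpa1 was at or near the floor. Pirt stood at 356 TPM or more in every library, where Trpm8 stayed below 0.24 TPM. Whrn (0.145 TPM) and the chloride channel gene Ano1 (at most 4 counts) were the 2 below 1 TPM.

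Among 12 receptors whose signals sensitise TRP channels, 7 reached 1 TPM, close to the 55.5% of all coding genes. Among them were the prostacyclin receptor gene Ptgir (56.7 ± 10.8 TPM), the TNF receptor gene Tnfrsf1a (27.6 ± 4.02), Il6st (12.5 ± 3.34), the bradykinin B2 receptor gene Bdkrb2 (9.37 ± 3.64) and Ednra (2.99 ± 1.01). Bdkrb1, for the inducible B1 receptor, had no counts, and F2rl1, for the protease receptor PAR2, had 1 or 2. All 10 nociceptor regulators and markers, chosen by name, had a mean of at least 1 TPM, and 9 without library B, beside the same 55.5%. Mrgprd, a receptor gene of nonpeptidergic nociceptors, stood at 0.719, 2.54 and 0.297 TPM in A, B and D, and its mean was 1.18 TPM with B and 0.508 TPM without it. Runx1 was at 0.914 TPM in A. Trpv1 at 6.66 TPM stood below P2rx3 (359), Calca (203), Scn9a (102), Th (60.9), Scn10a (45.2), Tac1 (32.3) and Prdm12 (19.4), and above Tlx3 (2.29), Mrgprd and Runx1 (1.08 ± 0.156 TPM, SD, n = 3).

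The start regions differed in CG content. The Trpm7 window held 35 CG dinucleotides, more than 93.0% of all 32851 windows, Trpv4 30, Trpc1 22 and Trpm2 15, and the 2 Trpm3 windows 21 and 10. The single Trpv1 window held 4, the 3 Trpv2 windows 2, 2 and 7, and the Trpm8 window 1, against a median of 7 over all windows. Coding genes whose most CG-rich window held at most 7 reached 1 TPM in these cells in 13.9% of 5685 cases, and those above 7 in 79.5% of 10806. Trpv1 and Trpv2 were among the 790 genes with few CG dinucleotides that reached 1 TPM, Trpm8 was not, and Trpv4 was among the CG-rich genes that did not. The plot of CG content against level shows that the CG-poor genes hold both the highest and the lowest level of the 8.

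**Figure D5:**
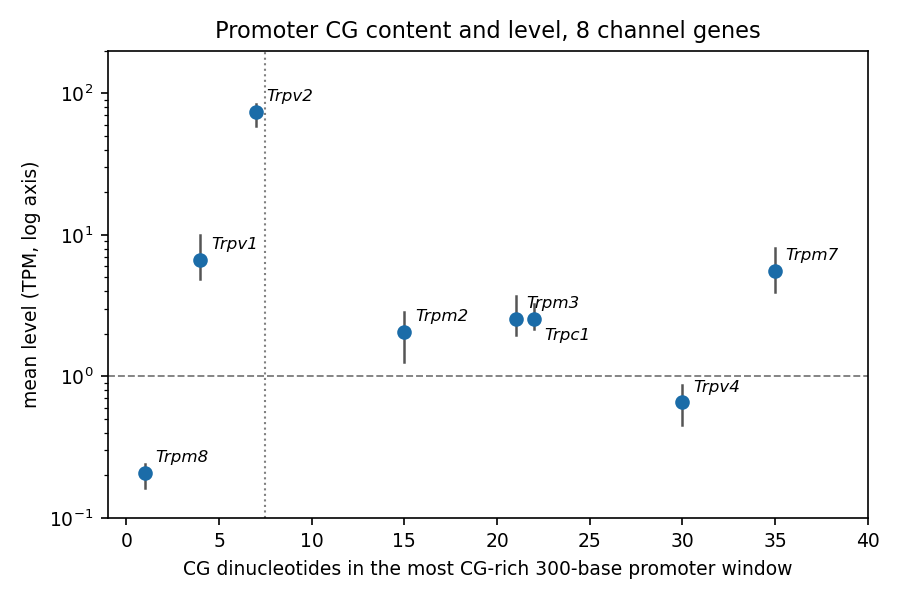
Mean level of the 8 channel genes with a RefSeq promoter window (points, TPM on a log axis, lines from the lowest to the highest library) against the number of CG dinucleotides in the most CG-rich window. The dotted line separates up to 7 from more, the dashed line is 1 TPM. Trpm8, Trpv1 and Trpv2 lie left of the dotted line at 0.208, 6.66 and 74.1 TPM.

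TGTGGT or its reverse complement ACCACA occurred in 16.8% of all windows. Among the 8 genes it was found in those of Trpv1 (starting 50 bases before the RefSeq start), of Trpv2 (25 bases after the first start and 3 before the second, which are the same letters in overlapping windows) and in the second Trpm3 window, and not in those of Trpm8. TATAAA or its reverse complement TTTATA occurred in 13.6% of all windows. It lay 30 bases before the RefSeq start of Trpm8, which is inside the counted gene. It was also found in the second Trpv2 window and the Trpm2 window. These motifs were searched with the sequences in view, and a match describes letters only.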

How the data were processed

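RNA-seq of 3 pooled libraries was analysed from gene tables. The deposited values are whole-number gene counts, listed with exon coordinates and lengths. Subread, featureCounts 1.4.5 and build GRCm38.p2 are named in the submitters' processing notes. Strand use and multi-mapping settings were not given in the sources used here. The deposited CPM equalled counts scaled to the library total, and the deposited RPKM equalled that CPM per kilobase (largest difference 4.7e-11), so both were only checked.

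Symbols came from GENCODE M21 (40254 of 41388 genes), whose spans equalled the deposited ones for 8 of the 9 channel genes. TPM was computed from counts and deposited lengths. Pairs of genes with at least 10 counts in every library were compared by an exact sign-flip test (two-sided). Variation between libraries was tested in edgeR 4.0.16 (R 4.3.3: TMM, filterByExpr, intercept-only fit, trended dispersion, chi-square with 2 degrees of freedom), because 1 group gives the quasi-likelihood test no contrast. The fit was also run on simulated counts drawn with the common dispersion, with changes planted only in genes of 10 CPM or more. Trpv1, Trpm3, Trpc1, Trpv4, Trpm8 and Trpa1 averaged less, so that run does not measure power for them. Any 2 libraries differed beyond counting error (chi-square per gene at least 49.9), so none was a copy of another. That value alone cannot exclude repeats from the same RNA, but the labels give a different number of embryos for each library. Alternatives were other thresholds, CPM, other totals, normalisations, filters and dispersions, DESeq2 1.42.0, and leaving out each library. Python 3.11.15 with numpy 2.4.6, pandas 2.3.3, scipy 1.17.1 and matplotlib 3.10.9 served for the rest. Genes and lists were chosen with earlier results of these data known. All 9 genes are named. From the other lists any gene may be named, and always those at 1 TPM or more (the 6 highest) and those at the floor in every library, except a few genes that are not reported here. Markers from the lists were set beside Trpv1 and Trpm2 by their order over the 3 libraries, which has too few points for a test. Otherwise no gene was named by likeness of pattern.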

Additional observations from a re-analysis of the deposited data

How the results depend on the processing

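The number of channel genes at 1 TPM was 6 without any 1 library, with 2 TPM, with 1 TPM required in every library, without mitochondrial and hemoglobin genes in the total, and with the transcript lengths chosen after seeing the data, and 7 with 0.5 TPM or CPM, which added Trpv4. The number above the floor was 8 when scaled to the smallest library or without any 1 library, and 7 with a floor of 10 counts, which removed Trpm8. Of the 36 alternative values of ratios between neighbours, 6 changed sign. Log2 Trpv1/Trpm7 (0.25) became -1.37 as CPM, -0.29 with the transcript lengths and -0.31 without B (0.71 without A). Log2 Trpm3/Trpc1 (-0.03) became 0.036 without B and 0.0070 without D, and was -0.13 without A. Log2 Trpc1/Trpm2 (0.35) became -0.27 as CPM. The count of genes varying between libraries (24) ranged from 2 without B to 27 without D, with 7 without A, and was 35 without a filter, over 24745 genes. The cause was not tested. No channel gene was called in any of these edgeR fits (51 alternative adjusted p-values from 0.81 to 1.00). Without any 1 library, an alternative chosen after seeing the data, 6 to 8 other TRP genes, 16 or 17 partner genes and 7 receptor genes reached 1 TPM. Depth limits Trpa1 and Trpm8 most. No paired analysis was possible because the libraries form 1 group.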
